A study of Mus musculus with 18 samples.

Results

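Transcript levels of 10 genes of the circadian clock were followed through heat shock (HS) and tunicamycin (Tu) in mouse NIH3T3 fibroblasts by mRNA-seq. The 10 members were chosen by name, with earlier results of these data known. They were Per1, Per2, Per3, Cry1, Cry2, Nr1d1, Nr1d2, Dbp, Clock and Bhlhe40. They are 10 of the 20207 genes listed for every library, and all 10 had at least 1 read in each of the 18 libraries. The series held 6 groups of 3 libraries. Control cells were unstressed and taken at 0 min, HS cells were taken at 45 and 135 min, and cells given Tu, which blocks N-linked glycosylation in the endoplasmic reticulum, were taken at 45, 135 and 405 min. Every group, controls included, was the NIH3T3 line stably carrying a destabilizing domain fused to superfolder GFP (DD-sfGFP), sorted by flow cytometry for high expression, and the ligand that keeps the domain folded was present throughout. No untreated library was taken at a later time, so time in culture and stress cannot be told apart in the comparisons with control. Nothing in the labels says that replicates were separate cultures, so p-values measure the spread between these libraries, which may be technical. The RNA was from whole cultures, in which fewer expressing cells and less RNA per cell cannot be told apart.

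In the core loop of the clock, the CLOCK protein and its partner ARNTL bind E-box sequences and switch on the Per and Cry genes, whose proteins accumulate and then block CLOCK and ARNTL. The same activators drive Nr1d1 and Nr1d2, which encode the REV-ERB repressors of Arntl transcription, as well as Dbp, an activator at D-box sequences, and Bhlhe40, a repressor that competes at E-boxes. Cultured fibroblasts carry such an oscillator, and Per1 and Per2 are also known to respond quickly to signals from outside the cell.

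RefSeq promoters, read in the GRCm38.p6 assembly and covering 250 bases before the annotated start, are shown for the members in which a clock motif was found, since E-boxes, D-boxes and ROR elements are the sequences through which the members act on each other. Capitals mark the matches, and all are written 5′ to 3′ on the gene's own strand.
Per1 promoter, chr11:69098699-69098948, plus strand: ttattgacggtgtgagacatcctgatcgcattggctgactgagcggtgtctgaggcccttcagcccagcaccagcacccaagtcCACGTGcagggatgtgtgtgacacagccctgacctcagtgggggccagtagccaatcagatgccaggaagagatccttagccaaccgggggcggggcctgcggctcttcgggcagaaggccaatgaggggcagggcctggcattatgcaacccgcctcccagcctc
Per3 promoter, chr4:151044666-151044915, minus strand: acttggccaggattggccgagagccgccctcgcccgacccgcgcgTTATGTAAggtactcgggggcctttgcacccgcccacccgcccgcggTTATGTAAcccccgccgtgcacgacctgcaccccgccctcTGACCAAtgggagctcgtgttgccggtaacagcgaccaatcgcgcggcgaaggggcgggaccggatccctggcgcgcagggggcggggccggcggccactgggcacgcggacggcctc
Cry1 promoter, chr10:85185055-85185304, minus strand: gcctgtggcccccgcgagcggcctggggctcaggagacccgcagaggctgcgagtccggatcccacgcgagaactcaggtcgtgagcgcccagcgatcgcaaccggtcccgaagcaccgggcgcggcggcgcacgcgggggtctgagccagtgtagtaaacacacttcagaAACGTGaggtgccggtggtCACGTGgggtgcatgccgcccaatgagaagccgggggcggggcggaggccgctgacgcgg
Cry2 promoter, chr2:92434070-92434319, minus strand: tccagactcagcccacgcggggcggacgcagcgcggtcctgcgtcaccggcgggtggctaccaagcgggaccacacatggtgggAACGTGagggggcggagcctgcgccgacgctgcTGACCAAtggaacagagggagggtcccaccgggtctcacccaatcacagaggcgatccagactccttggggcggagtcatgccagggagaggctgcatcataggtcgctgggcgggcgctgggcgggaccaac
Nr1d1 promoter, chr11:98775378-98775627, minus strand: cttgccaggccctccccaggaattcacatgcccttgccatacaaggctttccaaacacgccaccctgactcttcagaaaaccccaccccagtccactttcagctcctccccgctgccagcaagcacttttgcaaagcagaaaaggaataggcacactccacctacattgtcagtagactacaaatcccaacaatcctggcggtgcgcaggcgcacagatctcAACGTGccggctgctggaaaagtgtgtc
Per1 held 1 E-box (CACGTG), which began at position -166 from the start, and Cry1 held 1 at position -60. An E-prime box (CACGTT, seen here as its reverse complement AACGTG) lay at position -79 in Cry1, at -166 in Cry2 and at -28 in Nr1d1. Per3 held the D-box TTANGTAA at positions -205 and -158, and the ROR element TNGGTCA, the kind of site that REV-ERB proteins bind, lay as TGACCAA at -118 in Per3 and at -133 in Cry2. The matches do not overlap each other, and both strands were searched, including the 50 bases after the start. Of the 32851 promoters in the table, 7.15% held an E-box, 4.68% an E-prime box, 2.32% a D-box and 11.0% a ROR element. No promoter of a member held the pair GAANNTTC or TTCNNGAA of a heat shock element (15.1% of all promoters), the CHOP/ATF4 element TGATGNAA (3.97%) or the cAMP response element TGACGTCA (1.79%). The table holds promoters for 8 of the 10 members, and the second promoter of Per1 and those of Nr1d2, Dbp and Clock had none of these letters in this window. Per2 and Bhlhe40 were not matched.

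The libraries held 33415592 to 66478268 reads on genes, and values are given as CPM, counts relative to the library total and scaled by TMM over all 18 libraries. In a library of this depth 3 reads correspond to 0.0451 to 0.0898 CPM. The stress labels were checked with chaperone genes: Hspa1b, a heat shock chaperone, was at 6.30, 5.52 and 5.47 CPM in control and at 263 to 1210 CPM in HS 135 min, where Hspa1a (74.6 to 369 CPM against 1.43 to 2.02) and Hsph1 (1240 to 2720 CPM against 159 to 235) were high too. In HS 45 min replicates 1, 2 and 3, Hspa1b was at 280, 223 and 46.0 CPM and Hspa1a at 90.0, 52.1 and 14.4 CPM. Hsph1 was at 504, 292 and 499 CPM there. Hspa5, the main chaperone of the endoplasmic reticulum, was at 656 to 735 CPM in control and 8800 to 9290 CPM in Tu 405 min. At 135 min of Tu, Hspa5 stood at 333 to 491 CPM, below all 3 controls, and was not called (log2 -0.72 ± 0.19, edgeR adjusted p = 0.135), while Ddit3, the gene of CHOP, was at 69.4 to 74.0 CPM in control, 416 to 689 CPM at 45 min, 161 to 287 CPM at 135 min and 2170 to 2860 CPM at 405 min of Tu. The libraries labelled Tu 135 min thus lacked the high Hspa5 of 405 min and had less Ddit3 than those of 45 min, so Hspa5 does not bear out their label and values at 135 min of Tu stand as labelled, with the reason not tested. Neither gene was particular to Tu. In HS 135 min Hspa5 was at 1270 to 1420 CPM and Ddit3 at 257 to 513 CPM, both above all controls. In HS 45 min Hspa5 was at 626 to 694 CPM and Ddit3 at 138 to 233 CPM. All 7 fibroblast markers were at 10.2 RPKM or more in every library, whereas the markers of epithelial, endothelial, muscle and neuronal cells reached at most 0.39 RPKM. Of the 2 blood markers, Ptprc stayed below 0.1 RPKM and Cd68 reached 7.61 RPKM. Within groups, libraries differed in the share of reads from GC-rich transcripts. The GC tilt, the median log2 deviation from the mean over the 18 libraries of the 20% of genes richest in GC minus that of the 20% poorest, was highest in HS 45 min replicates 1 and 2 (1.06 and 1.32), HS 135 min replicate 2 (1.4) and Tu 135 min replicate 1 (0.74), and lay between -0.78 and 0.2 in the other libraries. The most tilted library of its group was the highest of the group in 5 of 6 groups for Per1, Per2, Per3 and Nr1d1, and in 4 of 6 for Cry2 and Dbp. For Clock and Nr1d2, whose transcripts have 41.6% and 41.8% GC against 61.7% for Dbp and 59.4% for Per1, it was the lowest in 4 of 6 groups. Transcript GC was 52.4% for Per3, 54.4% for Per2, 55.6% for Cry2 and 56.8% for Nr1d1. The counts of groups thus did not follow GC content step by step.

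On the scale of RPKM (reads normalized to gene length and library size), which allows levels of different genes to be compared, Nr1d1 had the highest mean of the members in control, at 12.97 to 17.74 RPKM. Bhlhe40 followed with 10.32 to 12.67 RPKM and Per1 with 8.91 to 16.68 RPKM, and the range of Per1 overlapped those of both Nr1d1 and Bhlhe40. Clock came next, at 6.79 to 7.718 RPKM, then Cry1 (mean 4.97 RPKM) and Cry2 (mean 3.68 RPKM). Nr1d2 (1.876 to 2.49 RPKM) and Dbp (1.702 to 1.901 RPKM) overlapped, and so did the 2 lowest members, Per3 (mean 0.792 RPKM) and Per2 (mean 0.683 RPKM). At 135 min of HS Per2 reached 4.689 to 8.079 RPKM, whereas at 405 min of Tu it was at 0.5726 to 0.6867 RPKM.

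**Figure D1:**
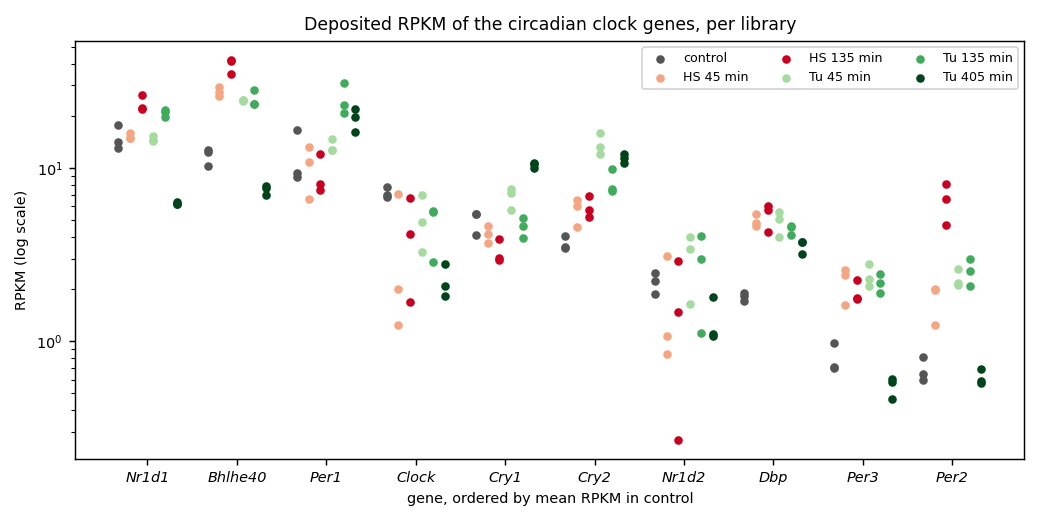
RPKM of each member (log scale) in every library, genes ordered from left to right by their mean in control, 1 point per library and colors for the 6 groups. Per2 and Per3 are lowest in control, and the 3 HS 135 min points of Per2 lie at 4.689 to 8.079 RPKM against 0.5952 to 0.8108 RPKM in control.

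Each stress was compared with control by the quasi-likelihood test of edgeR, and a gene is called higher or lower where its p, adjusted over the 12731 genes tested, was under 0.05. All 5 comparisons share the same 3 control libraries. After 135 min of HS, 4 members were called higher (Per2, Per3, Dbp and Bhlhe40) and 0 lower, where 4.75% of all genes tested were called higher and 2.64% lower. After 45 min of Tu, 5 members were called higher (Per2, Per3, Cry2, Dbp and Bhlhe40) and 0 lower, where 4.01% of all genes were called higher and 2.17% lower. In the libraries labelled Tu 135 min only Per2 was called, higher, with 0.126% of all genes called higher and 0.00785% lower. With the replicate number as a block, 0 members and 0.0% of all genes were called there. At 405 min of Tu, Per1, Cry1, Cry2 and Dbp were called higher and Nr1d1, Nr1d2, Clock and Bhlhe40 lower, so that 8 of the 10 members were called where 23.3% of all genes were called higher and 23.5% lower. All 10 members were called in at least 1 of the 5 comparisons, as were 51.3% of all genes.

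At 45 min of HS the edgeR test called 0 members and 0 of all genes in either direction (0.0% higher and 0.0% lower). The paper, also with edgeR and a threshold of 0.05, reports genes changed in both directions at this time. At an unadjusted p under 0.05, 5 members were higher and 0 lower in that comparison, where 12.3% of all genes were higher and 7.17% lower. DESeq2 called 4 members higher and 0 lower there, beside 3.18% and 0.544% of the genes it gave an adjusted p. The median log2 fold change over the 10 members was 0.52 at 45 min and 0.87 at 135 min of HS, against -0.03 and -0.02 over all genes tested. Under Tu it was 0.68 at 45 min, 1.15 at 135 min and -0.26 at 405 min, against 0.00, 0.00 and -0.01 over all genes. At 135 min of Tu an unadjusted p under 0.05 was reached by 7 members that were higher and 1 that was lower, where 10.1% of all genes were higher and 8.49% lower. DESeq2 called 6 members higher and 0 lower, beside 2.71% and 2.73% of its genes.

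**Figure D2:**
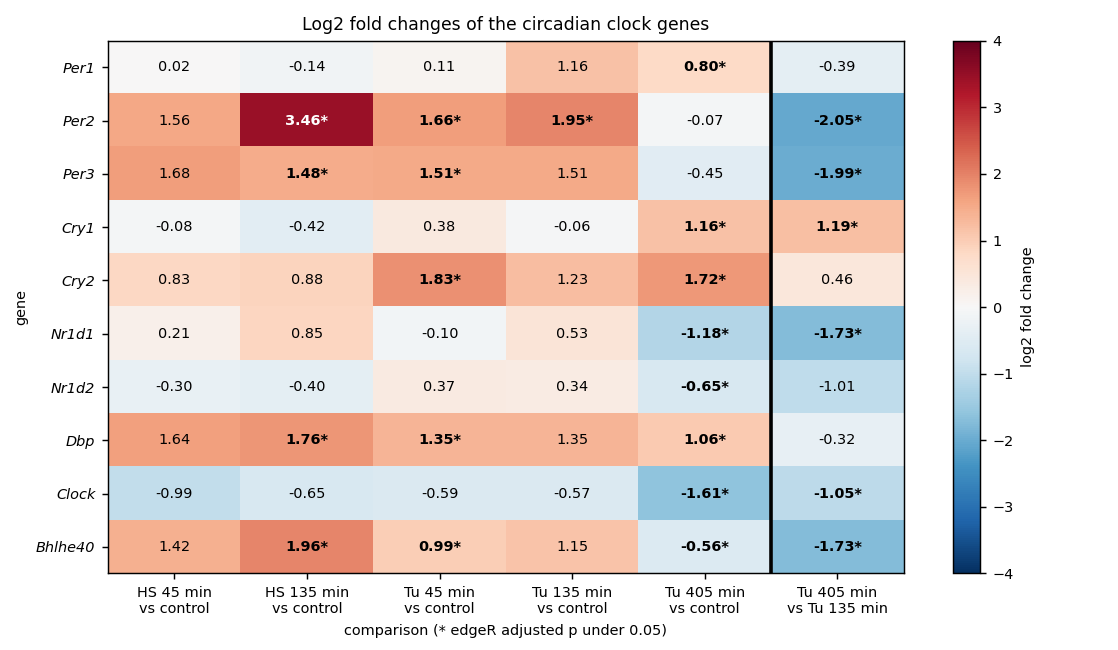
Log2 fold change of each member (rows) against control in the 5 stressed groups and, right of the line, between Tu 405 min and Tu 135 min. Red is higher, blue lower, and an asterisk marks an edgeR adjusted p under 0.05. Per2 in HS 135 min has the largest value of the panel, 3.46, and the Tu 405 min column holds 4 members called higher and 4 called lower.

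The HS 135 min and early Tu calls, except that of Cry2 at 45 min of Tu, were lost without certain libraries, and so were most calls over all genes. Without control replicate 2, control replicate 3 or HS 135 min replicate 3, the count of members at 135 min of HS went from 4 to 0, and that of all genes from 941 to 15, 11 and 11. Over the refits without 1 library the log2 values stayed between 3.21 and 3.71 for Per2, 1.29 and 1.69 for Per3, 1.59 and 1.89 for Dbp and 1.86 and 2.11 for Bhlhe40. Without HS 135 min replicate 2, the library of highest GC tilt, 4 members and 1236 genes were called. The count of 5 members at 45 min of Tu was 3 without control replicate 2, 2 without control replicate 3 and 1 without Tu 45 min replicate 2, while that of all genes went from 786 to 102, 96 and 58. At 45 min of HS, 7 members were called without replicate 3, that is, with the tilted replicates 1 and 2 alone, where 45.4% of all genes were called. Replicate 3 was also the lowest of its group for Hspa1b and Hspa1a, though not for Hsph1, and the reason was not tested. At 135 min of Tu, 3 members and 0.479% of all genes were called without replicate 1, and 0 members without any other single library, where at most 3 genes were called. With an offset for GC content, 6 members were called at 135 min of HS and 6 at 135 min of Tu, beside 20.8% and 2.22% of all genes.

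Per2, a negative limb gene whose protein partners the CRY repressors, had the largest change of all members. It was at 5.77, 4.02 and 4.28 CPM in control, at 16.0, 17.1 and 8.30 CPM in HS 45 min and at 32.4, 70.1 and 52.3 CPM in HS 135 min. Every HS library was above every control, and the HS 135 min libraries were all above those of 45 min. The rise at 135 min was 11.0-fold (log2 3.46 ± 0.35 SE, n = 3 against 3, edgeR adjusted p = 0.00786), whereas at 45 min the log2 difference was 1.56 ± 0.35 (adjusted p = 0.227). Left-out libraries moved the HS 135 min value between 3.21 and 3.71, and without control replicate 2, control replicate 3 or HS 135 min replicate 3 the adjusted p was 0.0555, 0.0651 and 0.0567.

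Under Tu, Per2 was at 13.1, 13.5 and 17.5 CPM at 45 min, at 22.6, 14.3 and 17.0 CPM at 135 min and at 4.05, 5.01 and 4.16 CPM at 405 min. The first 2 time points lay above all controls, and the last overlapped them. Per2 rose 3.17-fold at 45 min (log2 1.66 ± 0.21, edgeR adjusted p = 0.00777) and 3.86-fold at 135 min (log2 1.95 ± 0.26, edgeR adjusted p = 0.0457). The labels do not state pairs, but libraries of Tu 135 min and control with the same replicate number correlated. With the number as a block Per2 was not called (log2 1.94, edgeR adjusted p = 0.0689). The 135 min call was also lost without control replicate 1, 2 or 3 (adjusted p = 0.068, 0.341 and 0.41) and without Tu 135 min replicate 2 or 3 (0.122 and 0.203). The 45 min call was lost without control replicate 3 (adjusted p = 0.0507) and without Tu 45 min replicate 2 (0.0519).

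Per3, the PER family member that is not needed for a running clock, was at 7.05, 4.86 and 4.74 CPM in control. It was at 20.0, 22.4 and 11.0 CPM in HS 45 min, 12.4, 19.9 and 14.3 CPM in HS 135 min, 13.2, 14.7 and 19.1 CPM in Tu 45 min and 18.8, 13.4 and 14.8 CPM in Tu 135 min. The means of these 4 groups lay between 15.5 and 17.8 CPM, and none of the groups overlapped control. Per3 rose 2.79-fold at 135 min of HS (log2 1.48 ± 0.30, edgeR adjusted p = 0.029) and 2.85-fold at 45 min of Tu (log2 1.51 ± 0.22, edgeR adjusted p = 0.0123). At 405 min of Tu it was at 4.26, 4.30 and 3.44 CPM, below all controls, with a log2 difference of -0.45 ± 0.21 (edgeR adjusted p = 0.109). The HS 135 min call was lost without control replicate 2 or 3 or HS 135 min replicate 3 (adjusted p = 0.152, 0.158 and 0.134), and the Tu 45 min call without control replicate 2 or 3 or Tu 45 min replicate 2 (0.0666, 0.0706 and 0.0741).

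Per1, the PER gene known for rapid induction by signalling, was called only at 405 min of Tu. It was at 94.8, 48.0 and 49.4 CPM in control, so that control replicate 1 was about as high as the Tu 405 min libraries. HS gave 70.0, 89.3 and 35.1 CPM at 45 min and 40.8, 83.3 and 50.8 CPM at 135 min, which overlapped control. The log2 differences in HS were 0.02 ± 0.41 and -0.14 ± 0.37, and the one at 45 min was -0.85 without replicates 1 and 2, which leaves 1 HS library. Tu gave 62.9, 63.4 and 78.9 CPM at 45 min, 189, 114 and 123 CPM at 135 min and 89.4, 127 and 114 CPM at 405 min. Only at 135 min did the Tu libraries all lie above control (log2 1.16 ± 0.31, edgeR adjusted p = 0.137). At 405 min, where the groups overlapped, Per1 was called higher by 1.74-fold (log2 0.80 ± 0.28, edgeR adjusted p = 0.0443). This call was lost without control replicate 2 or 3 (adjusted p = 0.119 and 0.123) and without Tu 405 min replicate 1, 2 or 3 (0.0634, 0.141 and 0.11). The start of Per1 is given as base 68912458 of chromosome 11 (mm9) for 12 libraries and as 68913660 for the other 6. Its RPKM thus rests on 2 gene lengths. Set against those of Cry1, the counts and RPKM of Per1 imply a slightly shorter length in HS 135 min and Tu 405 min than elsewhere. When these groups are compared with any other group, gene model and stress cannot be told apart for Per1. This includes the call at 405 min of Tu. The effect on its counts was not tested.

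**Figure D3:**
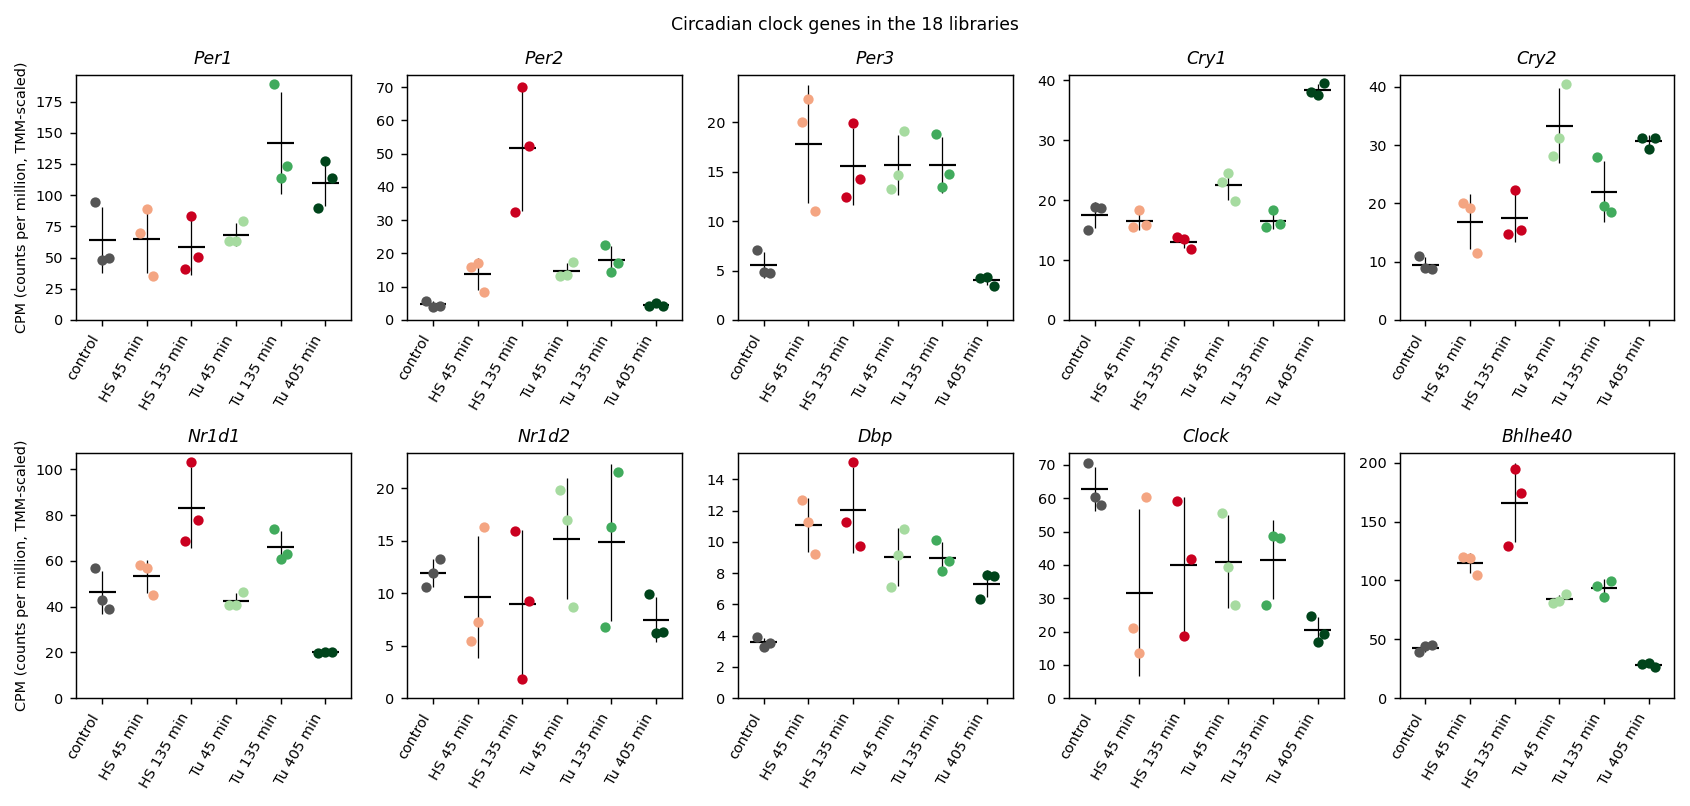
CPM of each member in the 18 libraries, 1 panel per gene and 3 points per group; horizontal lines are group means and vertical lines 1 SD. Per2 and Bhlhe40 are highest in HS 135 min, Cry1 stands above all other groups in Tu 405 min at 37.5 to 39.6 CPM, and the points of Clock and Nr1d2 spread widely within the HS groups.

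Cry1 and Cry2 encode the cryptochromes, the repressors that bind CLOCK and ARNTL. Cry1 was at 15.0, 18.8 and 18.7 CPM in control and between 11.9 and 24.6 CPM in all groups up to 135 min, where its log2 differences ran from -0.42 to 0.38 and none was called. At 405 min of Tu it was at 38.1, 37.5 and 39.6 CPM, above every other library. The rise was 2.23-fold (log2 1.16 ± 0.13, edgeR adjusted p = 0.000332), with log2 values of 1.06 to 1.19 when single libraries were left out. Cry2 behaved differently in time. It was at 10.9, 8.89 and 8.67 CPM in control, at 28.2, 31.3 and 40.5 CPM in Tu 45 min, at 28.0, 19.5 and 18.5 CPM in Tu 135 min and at 31.3, 29.4 and 31.3 CPM in Tu 405 min. All 9 Tu libraries lay above control, with a rise of 3.54-fold at 45 min (log2 1.83 ± 0.18, edgeR adjusted p = 0.00319) and of 3.28-fold at 405 min (log2 1.72 ± 0.15, edgeR adjusted p = 7.43e-05). In HS, Cry2 was at 20.0, 19.2 and 11.4 CPM and then at 14.8, 22.3 and 15.4 CPM, above control in every library but not called (log2 0.83 ± 0.29 and 0.88 ± 0.26, edgeR adjusted p = 0.233 and 0.0751). Both Tu calls of Cry2 held without any 1 library. The antisense gene D930015M05Rik overlaps Cry2 by 23417 bases in the GENCODE annotation of mm9. As for the other members, this is an overlap of whole gene spans, introns included. By the coordinates given with the counts, no gene overlaps a member. The use of strand in counting is not stated, so reads of Cry2 and D930015M05Rik may not be told apart.

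Nr1d1 encodes REV-ERB alpha, which represses Arntl. It was at 56.9, 42.9 and 38.8 CPM in control, at 68.8, 103 and 77.7 CPM in HS 135 min and at 73.8, 60.7 and 63.0 CPM in Tu 135 min. Both 135 min groups lay above control without being called (log2 0.85 ± 0.25 and 0.53 ± 0.20, edgeR adjusted p = 0.0701 and 0.217). At 45 min the log2 differences were 0.21 ± 0.23 for HS and -0.10 ± 0.17 for Tu. At 405 min of Tu the 3 libraries stood at 19.9, 20.2 and 20.2 CPM, and Nr1d1 fell 2.26-fold (log2 -1.18 ± 0.17, edgeR adjusted p = 0.000839). That call held without any 1 library. Thra lies antisense to Nr1d1 and overlaps it by 1075 bases in GENCODE, so reads in that stretch may be uncertain.

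Nr1d2, which encodes the related REV-ERB beta, was at 10.6, 11.9 and 13.2 CPM in control. Its values spread widely in the early groups, from 5.46 to 16.3 CPM in HS 45 min, from 1.86 to 15.9 CPM in HS 135 min, from 8.72 to 19.8 CPM in Tu 45 min and from 6.78 to 21.5 CPM in Tu 135 min. All 4 groups overlapped control. In the 4 libraries of highest GC tilt Nr1d2 was at 5.46, 7.25, 1.86 and 6.78 CPM, below every control, and the part of the tilt in its values was not tested beyond the offset for GC content, under which no early difference was called. At 405 min of Tu, Nr1d2 was at 9.93, 6.19 and 6.32 CPM, 1.57-fold below control (log2 -0.65 ± 0.21, edgeR adjusted p = 0.034). This call was lost without control replicate 2 or 3 (adjusted p = 0.0686 and 0.0946) and without Tu 405 min replicate 2 or 3 (0.132 and 0.13).

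Bhlhe40, also known as DEC1, was called at 135 min of HS and at 45 and 405 min of Tu, the last in the opposite direction. It was at 39.2, 44.2 and 44.9 CPM in control, at 120, 119 and 105 CPM in HS 45 min and at 129, 195 and 174 CPM in HS 135 min. The 3 groups did not overlap, and the libraries of 135 min were the highest. The rise at 135 min was 3.88-fold (log2 1.96 ± 0.22, edgeR adjusted p = 0.0106), and at 45 min the log2 difference was 1.42 ± 0.19 (adjusted p = 0.192). Under Tu it was at 80.9, 82.7 and 88.2 CPM at 45 min, 95.4, 86.0 and 99.9 CPM at 135 min and 29.0, 30.0 and 26.9 CPM at 405 min. Bhlhe40 thus rose 1.98-fold at 45 min (log2 0.99 ± 0.12, edgeR adjusted p = 0.00747) and fell 1.47-fold at 405 min (log2 -0.56 ± 0.12, edgeR adjusted p = 0.006), with all 3 late libraries below all controls. At 135 min the log2 difference was 1.15 ± 0.16 (adjusted p = 0.0569). The HS call was lost without control replicate 2 or 3 or HS 135 min replicate 3 (adjusted p = 0.0797, 0.086 and 0.0761), the Tu 45 min call without Tu 45 min replicate 2 (0.0643), and the fall at 405 min held without any 1 library. The antisense gene 0610040F04Rik overlaps Bhlhe40 by 306 bases.

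Dbp, an output gene of the clock whose protein activates D-box promoters, was at 3.89, 3.30 and 3.50 CPM in control and above that in every stressed library. It was at 12.7, 11.3 and 9.24 CPM in HS 45 min and 11.3, 15.1 and 9.74 CPM in HS 135 min. Tu gave 7.12, 9.16 and 10.8 CPM at 45 min, 10.1, 8.12 and 8.75 CPM at 135 min and 6.32, 7.87 and 7.79 CPM at 405 min. Dbp and Cry2 were the only members that lay above all controls in all 5 stressed groups. The share of all genes that did so was not counted. Dbp rose 3.38-fold at 135 min of HS (log2 1.76 ± 0.27, edgeR adjusted p = 0.0185). In Tu it rose 2.55-fold at 45 min (log2 1.35 ± 0.20, edgeR adjusted p = 0.0121) and 2.09-fold at 405 min (log2 1.06 ± 0.17, edgeR adjusted p = 0.00145). Its transcript lies at the 97.6th percentile of GC content among the genes tested, and with a GC offset the 3 log2 values were 1.33, 1.29 and 0.88, all called, while the value at 45 min of HS went from 1.64 to 0.96. The HS 135 min call was lost without control replicate 2 or 3 or HS 135 min replicate 3 (adjusted p = 0.111, 0.116 and 0.101) and the Tu 45 min call without control replicate 2 or 3 or Tu 45 min replicate 2 (0.0683, 0.0716 and 0.087). Sphk2 lies antisense to Dbp with an overlap of 689 bases.

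Clock, the gene of the activator itself, had the largest fall of the 4 members called lower at 405 min of Tu. It was at 70.4, 60.2 and 57.8 CPM in control and at 24.6, 17.0 and 19.4 CPM in Tu 405 min, a fall of 3.04-fold (log2 -1.61 ± 0.17, edgeR adjusted p = 0.000216) that held without any 1 library and with a GC offset (log2 -1.53). In Tu 45 min and Tu 135 min Clock was at 55.6, 39.3 and 28.1 CPM and at 27.9, 48.8 and 48.0 CPM, below all controls but not called (log2 -0.59 ± 0.25 and -0.57 ± 0.25, edgeR adjusted p = 0.185 and 0.265). In HS it was at 21.0, 13.6 and 60.3 CPM at 45 min and at 59.2, 18.7 and 41.9 CPM at 135 min, and the groups overlapped control. The libraries at 21.0, 13.6 and 18.7 CPM were the 3 with a GC tilt above 1. The log2 difference at 45 min was -0.99 over all 3 libraries. Without HS 45 min replicate 3 it was -1.86 and called (edgeR adjusted p = 0.00191), in a fit that called 45.4% of all genes, and with replicate 3 as the lone HS library, taken to vary like the controls, it was -0.03.

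**Figure D4:**
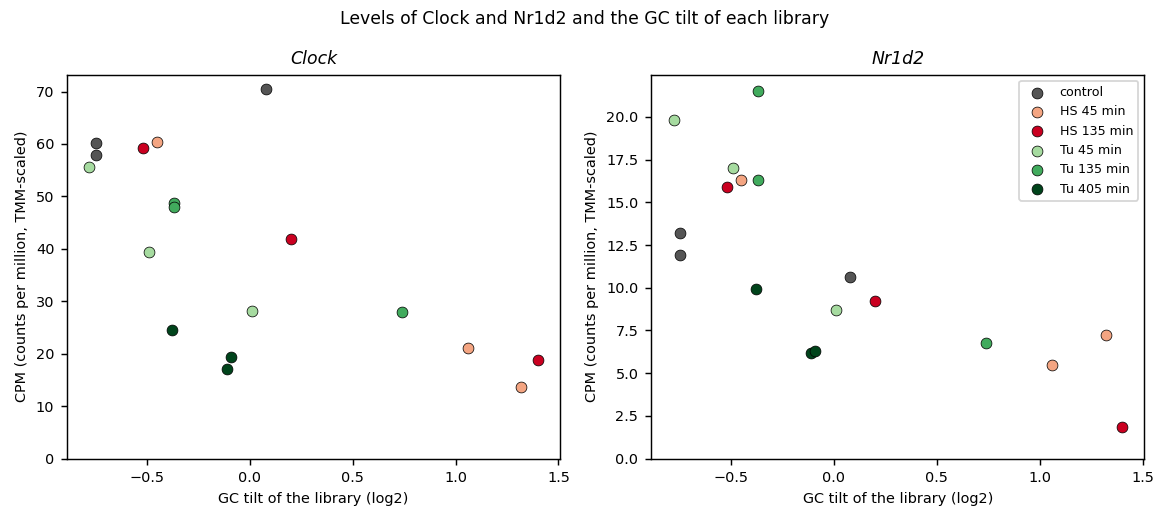
CPM of Clock (left) and Nr1d2 (right) against the GC tilt of each library (log2, high-GC minus low-GC genes), 1 point per library and colors for the 6 groups. The HS libraries with a tilt of 1.06, 1.32 and 1.4 hold the lowest HS values of both genes, while the 3 Tu 405 min libraries have low Clock at a tilt of -0.38 to -0.09.

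The times of one stress were compared directly, without the controls. From 135 to 405 min of Tu, 5 members fell and 1 rose, where 22.4% of all genes fell and 21.4% rose. Per2 fell 4.13-fold (log2 -2.05 ± 0.22, edgeR adjusted p = 0.000359), Per3 3.98-fold (log2 -1.99 ± 0.20, edgeR adjusted p = 0.000267), and Nr1d1 and Bhlhe40 3.32-fold each (log2 -1.73 for both). Clock fell 2.07-fold (log2 -1.05 ± 0.25, edgeR adjusted p = 0.0111), and its call was lost without Tu 405 min replicate 2 (adjusted p = 0.0515). Cry1 was the member that rose, 2.28-fold (log2 1.19 ± 0.13, edgeR adjusted p = 0.000482). Per2, Per3, Nr1d1, Bhlhe40 and Cry1 kept their calls without any 1 library. Between 45 and 135 min the edgeR test called 0 members in either stress, where 0.0% of all genes were called for HS and 0.291% for Tu. At an unadjusted p under 0.05, 3 members were higher and 0 lower in HS, where 11.6% of all genes passed in either direction, and 2 were higher and 2 lower in Tu, where 15.8% passed. DESeq2 called 1 member in HS and 2 in Tu, beside 3.23% and 5.31% of its genes. Per2 between 45 and 135 min of HS had a log2 difference of 1.85 ± 0.40 (adjusted p = 0.177). Without the tilted libraries HS 45 min replicates 1 and 2 and HS 135 min replicate 2, which leaves 1 library against 2 with the lone library taken to vary like the others, it was 2.37 and called, as were 1.04% of all genes.

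The stresses were also compared at the same time. At 45 min the edgeR test called 0 members between HS and Tu, against 0.204% of all genes. An unadjusted p under 0.05 was reached by 1 member higher and 2 lower in HS, close to the 24.0% of all genes that passed, and DESeq2 called 1 member, beside 9.04% of its genes. Cry2 had the largest difference, 1.97-fold lower in HS without overlap (log2 -0.98 ± 0.27, edgeR adjusted p = 0.138), while Per2, Per3 and Dbp overlapped between the stresses, with log2 differences of -0.09 ± 0.31, 0.19 ± 0.30 and 0.30 ± 0.23. Without HS 45 min replicate 3, 5 members were called, where 55.7% of all genes were. At 135 min the edgeR test again called 0 members, against 2.12% of all genes. At an unadjusted p under 0.05, 2 members were higher and 1 lower in HS, where 20.0% of all genes passed, and DESeq2 called the same counts of members, beside 9.87% of its genes. Per2 and Bhlhe40 were higher in all HS libraries than in all Tu libraries (log2 1.50 ± 0.33 and 0.80 ± 0.20, edgeR adjusted p = 0.0678 and 0.0896), and Per1 was lower (log2 -1.31 ± 0.33, edgeR adjusted p = 0.0874). Without the most tilted library of both groups, Per2 and Per1 were called (log2 1.45 and -1.36), as were 12.0% of all genes. Without HS 135 min replicate 1, Per2 and Bhlhe40 were called (log2 1.75 and 0.95), as were 2.86% of all genes.

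A list of 26 other clock genes, of which 22 were tested, holds the remaining transcription factors, the kinases and ubiquitin ligases that act on clock proteins, output genes and regulators of Per transcription. It had 5 genes called higher and 0 lower at 135 min of HS, where 4.75% of all genes were called higher and 2.64% lower, and 4 higher and 0 lower at 45 min of Tu, beside 4.01% and 2.17%. At 405 min of Tu 3 were called higher and 7 lower, and these 10 of 22 genes lie near the 46.8% of all genes called in that comparison. The edgeR test called 0 of them at 45 min of HS and at 135 min of Tu, where an unadjusted p under 0.05 was reached by 5 higher and 2 lower and by 9 higher and 1 lower genes. Of all genes, that p was reached in HS by 12.3% upward and 7.17% downward, and in Tu by 10.1% upward and 8.49% downward. DESeq2 called 3 and 2 of the list higher, beside 3.18% and 2.71% of its genes. The list's median log2 fold change was 0.25 and 0.17 in HS and 0.20, 0.06 and -0.19 in Tu, in order of time. Arntl, the partner of Clock and the target of the REV-ERB repressors, was not called by edgeR in any of the 10 comparisons, and it overlapped control at 135 min of HS and at 135 and 405 min of Tu. It was lowest in HS 45 min, at 16.0 to 18.2 CPM, and highest in Tu 45 min, at 31.0 to 34.0 CPM, 1.91-fold apart without overlap (log2 -0.93 ± 0.16, edgeR adjusted p = 0.0774). DESeq2 called Arntl lower in HS than in Tu at 45 min (adjusted p = 9.47e-05) and lower at 135 than at 45 min of Tu (adjusted p = 0.00289).

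Among the repressors of the list, Gm129 (also Ciart or Chrono), which binds ARNTL, was at 2.04 to 2.23 CPM in control and reached 9.58 to 10.6 CPM in Tu 45 min and 18.2 to 19.1 CPM in Tu 405 min. It rose 4.79-fold at 45 min (log2 2.26 ± 0.16, edgeR adjusted p = 0.00103) and 8.98-fold at 405 min of Tu (log2 3.17 ± 0.15, edgeR adjusted p = 8.85e-06). It also rose 2.82-fold at 135 min of HS, to 5.12 to 6.41 CPM (log2 1.49 ± 0.25, edgeR adjusted p = 0.0204), a call lost without control replicate 2 or 3 or HS 135 min replicate 3 (adjusted p = 0.129, 0.133 and 0.116). Nfil3, the repressor that opposes DBP at D-boxes, rose 3.83-fold at 45 min and 6.10-fold at 405 min of Tu (log2 1.94 and 2.61, edgeR adjusted p = 0.00122 and 1.35e-05), from 15.8 to 20.4 CPM in control to 110 to 118 CPM. Bhlhe41, the paralog of Bhlhe40, rose 6.27-fold at 135 min of HS (log2 2.65 ± 0.34, edgeR adjusted p = 0.0127), and without control replicate 2 or 3 or HS 135 min replicate 3 the adjusted p was 0.0866, 0.086 and 0.0862. At 45 min of Tu Bhlhe41 rose 2.13-fold (log2 1.09 ± 0.24, edgeR adjusted p = 0.0418), which was lost without control replicate 2 or 3 and without Tu 45 min replicate 1, 2 or 3 (adjusted p up to 0.185). Tef, which like Dbp activates D-box promoters, rose 2.25-fold at 135 min of HS and fell 1.75-fold at 405 min of Tu (log2 1.17 and -0.80). Sik1, a kinase that limits Per1 induction by light, went the same way, with log2 values of 1.70 and -1.06. The HS calls of Tef and Sik1 were lost without control replicate 1, 2 or 3 and without HS 135 min replicate 3 (adjusted p up to 0.19 for Tef and 0.164 for Sik1). Timeless, Usp2 and Wee1 fell at 405 min of Tu by 2.29-fold, 1.67-fold and 1.58-fold, and the call of Usp2 was lost without Tu 405 min replicate 3 (adjusted p = 0.0589).

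**Figure D5:**
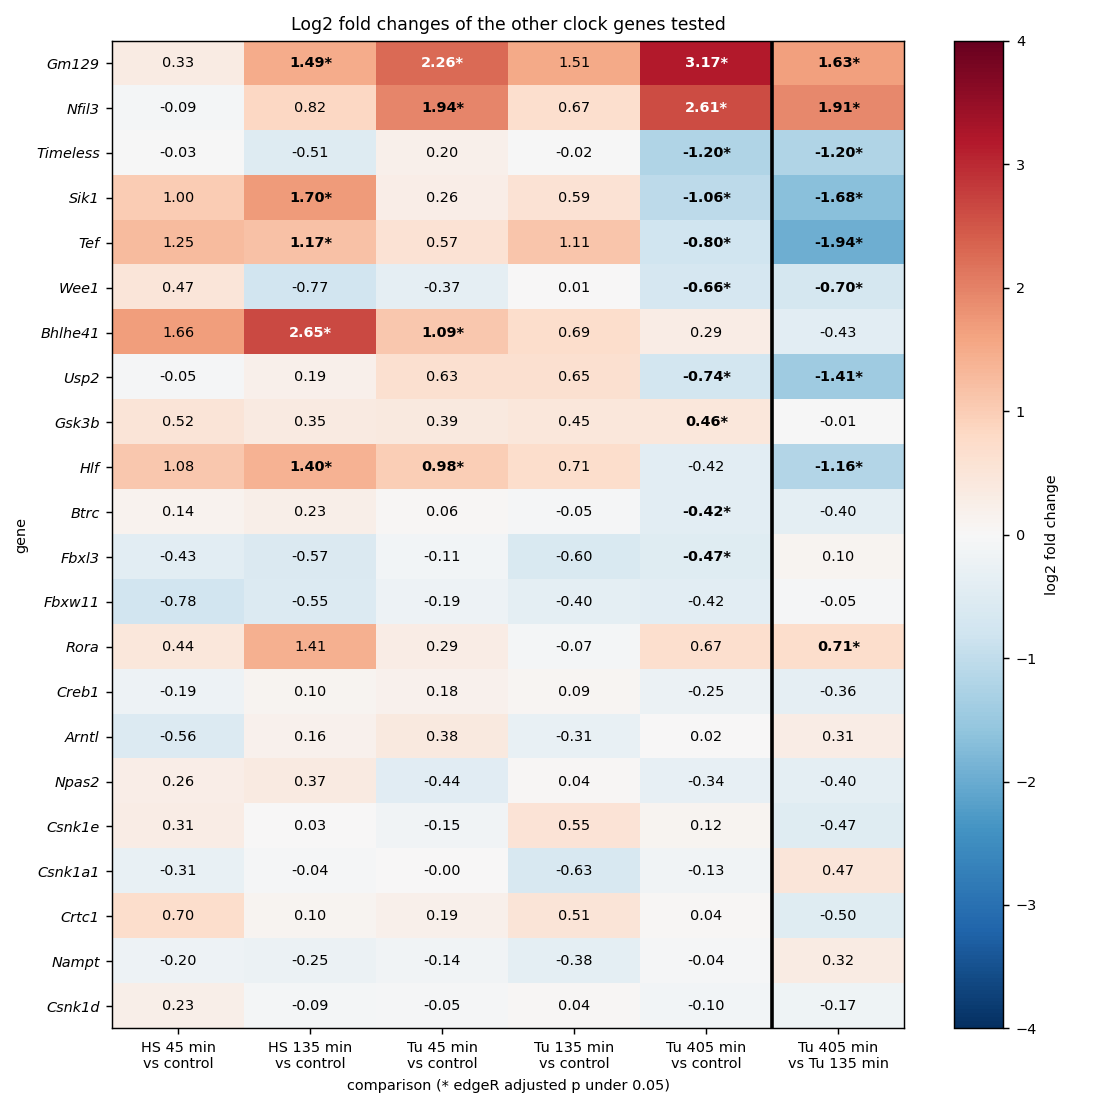
Log2 fold change of the 22 other clock genes tested, rows ordered by their smallest adjusted p against control, in the same columns as for the members. An asterisk marks an edgeR adjusted p under 0.05. Gm129 and Nfil3 have the largest values at 405 min of Tu, 3.17 and 2.61, and Bhlhe41 the largest at 135 min of HS, 2.65.

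As a description of the pattern over all 18 libraries, the genes whose log2 CPM had the highest Pearson r with each member were sought among 10919 genes with a mean of at least 50 reads. The libraries share group and GC tilt, and no test was made. The 3 nearest genes of Per2 were Tenc1 (r = 0.964), Zhx2 (0.943) and Aplf (0.938), those of Per3 were Sik2 (0.967), Gfra2 (0.962) and Acsbg1 (0.959), and those of Per1 were Leng8 (0.901), Rogdi (0.891) and Ewsr1 (0.883). Cry1 was nearest to Gpr155 (0.959), Wdr74 (0.954) and Trmt61b (0.952), and Cry2 to Arid5a (0.947), Zfyve20 (0.938) and Myc (0.932). Nr1d1 was nearest to Gatsl2 (0.973), Sh3pxd2b (0.97) and Stk35 (0.968), and Nr1d2 to Zhx1 (0.964), Prex2 (0.947) and A930041I02Rik (0.945). For Dbp they were Sorcs2 (0.936), Cblb (0.909) and Stra6 (0.909), for Clock Ipo9 (0.974), Rfwd3 (0.971) and Usp9x (0.966), and for Bhlhe40 Foxn2 (0.966), 9030425E11Rik (0.965) and Plekho2 (0.963). No member was among the 3 nearest genes of another. Among the members themselves, r over the 18 libraries was 0.92 for Per2 with Bhlhe40, 0.90 for Per3 with Bhlhe40, 0.83 for Per2 with Per3, 0.74 for Nr1d2 with Clock and -0.94 for Cry1 with Nr1d1. By Spearman's rho, 7 of the 30 nearest genes were again among the 3 nearest.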

How the data were processed

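Poly(A) RNA of 18 samples, 3 for each of 6 groups taken from the labels, was sequenced on an Illumina HiSeq instrument, aligned to mm9 and assigned to RefSeq genes on the DNAnexus platform by the authors. The aligner, the counter, their versions and the use of strand are not given in the sources used here, and of the library preparation methods described it is not stated which sample got which. The authors deposited the estimated count of every gene without normalization, rounded to 4 significant digits. Between 17.3% and 22.6% of a library's low counts were not whole numbers. They also deposited RPKM values, used here for levels across genes. A score (RPKM minus its mean over the genes of a library, divided by the SD) and a signal (RPKM divided by its root mean square) were deposited by the authors too, and were not used. Each file holds 1 library, and all columns of values belong to a sample.

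Estimated counts were rounded, and the 12731 genes with at least 1 read in each sample were tested in edgeR 4.0.16 (R 4.3.3) with TMM and the quasi-likelihood test, 3 samples against 3 in each of 10 comparisons, with p-values adjusted by the Benjamini-Hochberg method over all genes tested. The filter, edgeR and the threshold of 0.05 follow the study's methods. Standard errors came from the log2 fold change and the F statistic. The fits were tested on data simulated from the means and library sizes of the control and Tu 45 min samples, where DESeq2 made a larger share of false calls than edgeR. The simulated counts had a fixed dispersion and no GC tilt, so these shares need not hold for the real libraries. Alternatives were DESeq2 1.42.0 as test or for size factors, total counts, no filter, all 18 samples in 1 fit, the replicate number as a block, an offset for transcript GC content (lowess, span 0.3, values for 97.6% of tested genes), the offset with the block, and each library left out. Leaving out the 4 libraries of highest GC tilt was added after seeing the data.

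The labels number the replicates 1 to 3 in each group. Deviations from the group means of samples with the same number correlated at 0.287, 0.236 and 0.194 between Tu 135 min and control. There 6 of 6 samples were nearest to their own number. The main fit of that comparison did not use the numbers as pairs. The fit with the number as a block called 0 members and 0.0% of all genes. The labels do not state that they are pairs. Replicate 1 also had the highest GC tilt of its group in control (0.08) and in Tu 135 min (0.74). The part of the tilt in these correlations was not tested. In the other 9 comparisons at least 1 pair did not correlate above 0.1.

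The members and the gene lists were chosen with earlier results of these data known. Named are the 10 members, the 8 other clock genes with the smallest adjusted p against control, the 3 genes most like each member, 5 stress genes, and genes overlapping a member. Promoters were RefSeq's for GRCm38.p6, and motif matches are a description.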

Additional observations from a re-analysis of the deposited data

Results flagged for a closer look

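The results below are differences between times of a stress, or between stresses at the same time, that passed the edgeR test directly, and no cause was tested. From 135 to 405 min of Tu the log2 changes of the members were -2.05 for Per2, -1.99 for Per3, -1.73 for Nr1d1, -1.73 for Bhlhe40, -1.05 for Clock and 1.19 for Cry1. Among the other clock genes, Tef (-1.94), Sik1 (-1.68), Usp2 (-1.41), Timeless (-1.20), Hlf (-1.16) and Wee1 (-0.70) fell over the same interval, and Nfil3 (1.91), Gm129 (1.63) and Rora (0.71) rose. Hlf and Rora are named here after their values were seen. The call of Rora (edgeR adjusted p = 0.0438) was lost without Tu 135 min replicate 2 or 3 (adjusted p = 0.132 and 0.127) and without Tu 405 min replicate 1, 2 or 3 (0.104, 0.107 and 0.137).

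Nfil3 fell from 45 to 135 min of Tu (log2 -1.27, edgeR adjusted p = 0.046), from 67.0 to 74.5 CPM to 24.3 to 33.1 CPM, before it reached 110 to 118 CPM at 405 min. This call was lost without Tu 45 min replicate 1, 2 or 3 (adjusted p = 0.234, 0.391 and 0.231) and without Tu 135 min replicate 2 or 3 (0.214 and 0.155).

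At 45 min Gm129 and Nfil3 were lower in HS than in Tu (log2 -1.92 and -2.02, edgeR adjusted p = 0.0455 for both), with no overlap between the stresses. Gm129 was at 2.44 to 2.92 CPM in HS and 9.58 to 10.6 CPM in Tu. Both calls were lost without HS 45 min replicate 1 or 2 (adjusted p = 0.306 and 0.167) and without Tu 45 min replicate 1, 2 or 3 (0.317, 0.393 and 0.248).

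At 135 min Bhlhe41 was higher in HS than in Tu (log2 1.94, edgeR adjusted p = 0.0373), at 11.2 to 19.5 CPM against 3.61 to 5.01 CPM. This call was lost without HS 135 min replicate 3 (adjusted p = 0.199) and without Tu 135 min replicate 1, 2 or 3 (0.0858, 0.221 and 0.191), and was kept without the most tilted library of both groups (log2 1.98, adjusted p = 0.00081).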

How the results depend on the processing

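The 24 calls of members against control or between 135 and 405 min of Tu kept their direction in 336 of 336 refits, but calls at 45 and 135 min depended on the fit. Brackets give the share of all genes called in the same fit, for DESeq2 of the genes it gave an adjusted p. With DESeq2 in place of edgeR 4 members were called at HS 45 min (3.73%) and 6 at Tu 135 min (5.44%). It called 1 between HS times (3.23%) and 2 between 45 and 135 min of Tu (5.31%). Between stresses it called 1 at 45 min (9.04%) and 3 at 135 min (9.87%). The other clock genes it called were 3 at HS 45 min and 2 at Tu 135 min. With all 18 samples in 1 fit 5 members were called at HS 45 min (10.6%) and 7 at HS 135 min (25.5%). At Tu 135 min 5 were called (3.23%), and between HS times 3 (7.11%). Between stresses 1 was called at 45 min (9.95%) and 3 at 135 min (13.9%). The other clock genes called in that fit were 4, 9 and 3 at HS 45 min, HS 135 min and Tu 135 min. With the GC offset 6 members and 2 other clock genes were called at Tu 135 min (2.22%). It gave 1 member between HS times (0.88%) and 2 between 45 and 135 min of Tu (2.11%). Between stresses it gave 2 at 45 min (3.97%) and 2 at 135 min (11.4%). Total counts gave 2 members between stresses at 135 min (3.8%) and 7 other clock genes at Tu 45 min (8.31%). No filter gave 2 members and 1 other clock gene at Tu 135 min (0.156%). Without the 4 tilted libraries 2 members were called between stresses at 135 min (12.0%).

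With the replicate block, 0 members were called at HS 135 min, Tu 45 min and Tu 135 min (4, 5 and 1 without it). Of all genes, 0.0%, 0.165% and 0.0% were called there. Of the other clock genes, 0 and 2 were called at HS 135 min and Tu 45 min (5 and 4 without it). With the block and the GC offset, 0 members were called at Tu 135 min and 2 other clock genes at HS 135 min. Of all genes, 0.0% and 7.16% were called there. In the labels the samples share only a number. Only between Tu 135 min and control did every pair of the same number correlate above 0.1. At Tu 405 min the block left 6 of 8 members called, beside 41.4% of all genes. At HS 135 min, Tu 45 min and Tu 405 min 0 of 6 samples correlated best with their own number, and at HS 45 min 3 of 6.

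Without 1 library, members called ranged from 0 to 7 at HS 45 min (0.0% to 45.4% of all genes). At HS 135 min the range was 0 to 6 (0.0864% to 19.4%). It was 1 to 6 at Tu 45 min (0.456% to 19.6%) and 0 to 3 at Tu 135 min (0.0% to 0.479%). At Tu 405 min it was 6 to 8 (31.9% to 62.0%). From 45 to 135 min of Tu it was 0 to 1 (0.0% to 1.71%), and from 135 to 405 min 5 to 8 (27.9% to 63.8%). Between stresses it was 0 to 5 at 45 min (0.0% to 55.7%) and 0 to 2 at 135 min (0.0% to 2.86%). Other clock genes ranged from 0 to 6, 0 to 7, 2 to 9, 0 to 1 and 6 to 14 in the comparisons with control, in the same order.

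Signs turned only among log2 differences that were not called. Per1 at HS 45 min was 0.02, and -0.18 with total counts, -0.02 with the block, -0.61 with the GC offset, -0.59 with both, -0.85 without the tilted libraries (which leaves 1 HS 45 min library), and -0.29 to 0.41 without 1 library. At HS 45 min Nr1d1 was -0.16 and Nr1d2 0.12 with the GC offset, -0.16 and 0.09 with the block as well, and -0.02 and 0.49 without the tilted libraries. Nr1d1 at Tu 45 min was 0.01 with total counts. Between stresses at 45 min, Per3 was -0.13 with total counts and -0.49 without the tilted libraries, and Dbp -0.32 with the GC offset and -0.36 with the block as well. Without 1 library, Per1 ranged from -0.46 to 0.25 at HS 135 min and from -0.07 to 0.50 at Tu 45 min, Nr1d2 from -1.10 to 0.11 at HS 135 min and from -0.02 to 0.70 at Tu 135 min, Nr1d1 from -0.22 to 0.07 at Tu 45 min, Cry1 from -0.16 to 0.00 at Tu 135 min, Per2 from -0.19 to 0.12 at Tu 405 min, and, between stresses at 45 min, Per2 from -0.28 to 0.17 and Per3 from -0.02 to 0.44. The cause was not tested. By CPM per kilobase 8 of 10 members held the same rank as by RPKM. Depth allows values down to 3 reads, at most 0.0898 CPM, and the lowest value of a member was 1.86 CPM.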
